A study of Rattus norvegicus with 6 samples.

Results

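DNA methylation was examined at the CpG sites of cadherin and protocadherin genes in rat dorsal root ganglia (DRG), the clusters of sensory neuron cell bodies beside the spinal cord. A site belonged to the set when the annotated transcript start nearest to it was that of a gene whose symbol begins with Cdh, Pcdh, Dsc or Dsg and goes on with a digit, or that of a clustered Pcdha, Pcdhb or Pcdhg gene. This gave 300 of the 32674 annotated nuclear CpG sites and 36 of the 8016 genes, and the rule uses symbols alone; 1 further gene of the family was left out, and the family was picked with earlier results of these data known. A gene name therefore stands for the nearest start, not for a tested regulatory link, and the median distance of the 300 sites to that start was 244 kb.

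The SNL group was DRG taken 3 weeks after spinal nerve ligation, a surgical model of neuropathic pain in which 2 spinal nerves, L5 and L6 of the left side, are tied (n = 3 libraries). The Sham group was DRG taken 3 weeks after a sham operation that left the nerves untied (n = 3 libraries). All tissue came from male Sprague-Dawley rats of 8 to 9 weeks and about 220 g, with no transgene or drug named in the labels. The labels place the sham operation on the other side of the body, so the groups may share animals, and they do not say which libraries came from separate animals; each p-value thus speaks of the scatter among these 6 libraries, part of which may be technical. The comparison asks where methylation in the ganglion differs after nerve ligation. The labels do not name the spinal levels of the ganglia collected.

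Cadherins are calcium-dependent adhesion proteins that span the membrane, and most of them join 2 cells by binding the same or a related cadherin on the neighbouring cell. Classical cadherins of type I and type II are tied to actin through catenins, desmocollins and desmogleins build the desmosome, and protocadherins give neurons and their branches surface identities through combinatorial binding. In the peripheral nervous system cadherins hold glia to axons and to each other and help sort sensory and motor neurons during development. Methylation of CpG sites in a promoter is usually low where a gene can be transcribed, while most CpG sites between genes are highly methylated.

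Reduced representation bisulfite sequencing (RRBS) reads the ends of fragments cut at CCGG by the enzyme MspI, so CpG-rich promoters are covered more readily than CpG-poor ones. The range of base content is shown by 3 promoters of member genes for which promoter sites were measured here, each given as 250 bases before to 50 bases after the start in RefSeq's GRCr8 assembly, 5′ to 3′ on the gene's strand, with every CG in capitals.
Pcdh18, chr2:135996777-135997076, minus strand: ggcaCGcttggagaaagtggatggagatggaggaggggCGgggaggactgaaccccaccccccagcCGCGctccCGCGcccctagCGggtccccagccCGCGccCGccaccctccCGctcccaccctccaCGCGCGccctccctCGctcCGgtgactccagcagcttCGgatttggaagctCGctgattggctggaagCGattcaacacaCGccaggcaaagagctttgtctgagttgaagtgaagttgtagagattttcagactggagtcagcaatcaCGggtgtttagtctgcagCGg
Pcdh7, chr14:57113473-57113772, minus strand: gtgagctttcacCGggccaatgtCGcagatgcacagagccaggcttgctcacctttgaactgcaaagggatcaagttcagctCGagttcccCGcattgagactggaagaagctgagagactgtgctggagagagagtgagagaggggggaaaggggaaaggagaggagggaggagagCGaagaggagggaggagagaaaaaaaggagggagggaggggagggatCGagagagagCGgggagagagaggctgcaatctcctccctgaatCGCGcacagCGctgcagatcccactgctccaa
Cdh20, chr13:21515017-21515316, plus strand: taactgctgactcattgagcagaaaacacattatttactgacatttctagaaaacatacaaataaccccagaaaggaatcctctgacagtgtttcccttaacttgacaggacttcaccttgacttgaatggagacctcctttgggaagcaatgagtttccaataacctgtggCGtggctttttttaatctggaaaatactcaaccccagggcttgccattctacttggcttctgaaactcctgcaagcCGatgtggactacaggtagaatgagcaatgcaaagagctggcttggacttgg
The Pcdh18 window holds 22 CG, more than 79.0% of the 33469 rat promoters of that length. The Pcdh7 window holds 10 CG, and the Cdh20 window holds 2. Searched for the letters CCGG, which read the same on both strands and contain a CG, the Pcdh18 and Pcdh7 windows each have 1 and the Cdh20 window has none. CCGG occurs in 51.4% and CG in 94.5% of all 33469 windows, whose median is 7 CG. Promoter windows were found for 27 of the 36 genes, with 2 to 43 CG each.

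Promoter sites of these genes were mostly unmethylated in both groups, and none of the 24 sites flagged as promoter passed the test. At the promoter of Pcdh18, a protocadherin of the delta group, the 4 measured sites lay at -102, -84, -70 and -53 from the start in the authors' annotation and averaged 2.05% ± 0.24 in SNL and 1.38% ± 0.34 in Sham (SD, n = 3 libraries each). The spacing of those 4 positions occurs once among the CG of the printed Pcdh18 window, at -101, -83, -69 and -52. The same spacing occurs in 336 of the 33469 promoter windows, so it does not single out this promoter. At the Pcdh7 promoter, also of a delta protocadherin, the 2 sites averaged 2.49% ± 0.26 in SNL and 3.16% ± 0.62 in Sham. The single Cdh20 promoter site, 260 bp inside the transcribed side of the start, stood at the other extreme with 95.6% ± 1.07 in SNL and 97.5% ± 1.40 in Sham. The Pcdh18 and Pcdh7 sites were thus nearly free of methylation in both groups. The Pcdh7 sites lay at -143 and -95 in the authors' annotation. No CG of the printed Pcdh7 window lies at those positions, so they were not matched to it. The site beside the window with 2 CG was nearly fully methylated.

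The other promoters ranged from nearly unmethylated to intermediate and highly methylated, with each of their sites inside a CpG island (a stretch rich in CG) at a low level. In Cdh1, which encodes E-cadherin, the main adhesion protein of epithelia, 7 island sites averaged between 0.698% and 1.92% in SNL and between 0.212% and 2.45% in Sham. The eighth Cdh1 promoter site, 0.7 kb upstream in the island's shore, read 74.4%, 79.3% and 73.7% in SNL 1 to 3, against 72.0%, 68.1% and 73.5% in Sham 1 to 3. Each SNL library was above each Sham library there, by 4.61 points on average, with an adjusted p of 0.585 in the fit across all sites. For Cdh6, a type II cadherin, 5 island sites averaged 2.34% ± 0.33 in SNL and 1.85% ± 0.46 in Sham. Outside islands, the 2 promoter sites of Pcdh9 averaged 7.98% ± 0.91 in SNL and 7.05% ± 1.91 in Sham, and those of Pcdhga8, a gene of the gamma protocadherin cluster, averaged 46.2% ± 1.79 and 44.3% ± 3.32. Adjusted p over the 24 promoter sites lay between 0.574 and 0.997.

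Away from promoters, methylation was high. The Sham mean was above 80% at 193 of the 300 sites, between 20% and 80% at 69 and at 20% or less at 38. A CpG island did not always mean a low level: the 5 island sites 482.8 to 482.9 kb inside Cdh13, which encodes the membrane-anchored T-cadherin, averaged 93.6% to 98.7% in SNL and 94.8% to 98.5% in Sham. Low levels far from a start were found beside Pcdhgc3, one of the C-type gamma protocadherins, where 3 sites at 40.4 kb averaged 7.36%, 7.21% and 9.83% in SNL and 11.1%, 10.8% and 14.4% in Sham.

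**Figure D1:**
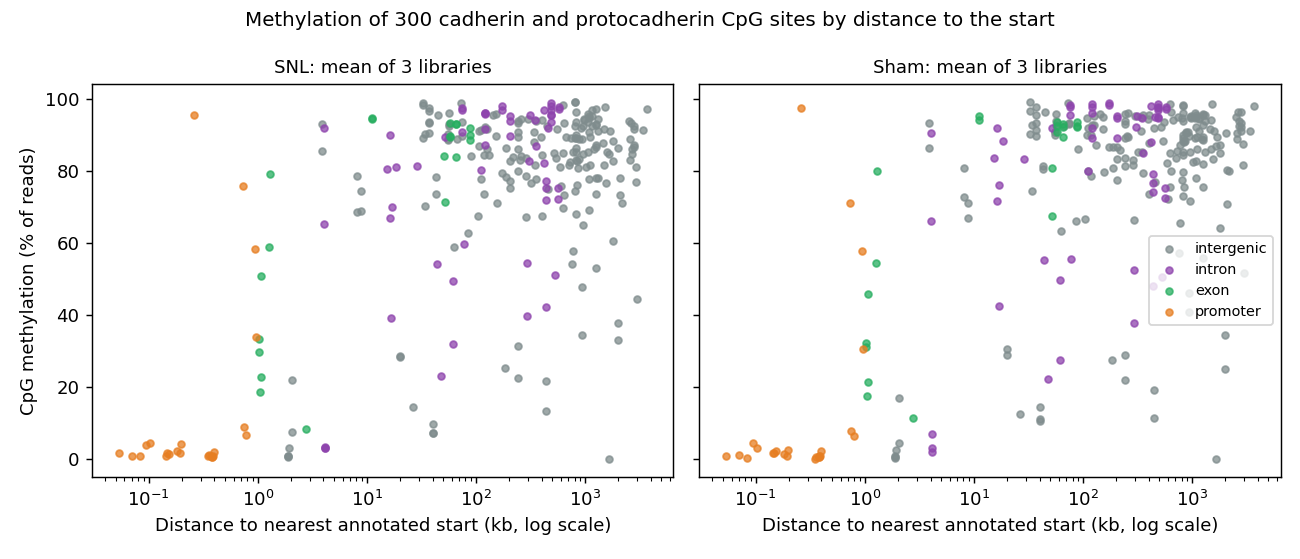
Each point is 1 of 300 CpG sites, with the mean percent methylation of 3 libraries on the vertical axis and the distance to the nearest annotated start in kb on a logarithmic horizontal axis, for SNL on the left and Sham on the right; colours mark the annotation of the site. Promoter sites sit mostly near 0 in both panels, and the sites beyond 100 kb, with a median of 86.2% in SNL and 89.2% in Sham, mostly lie near the top.

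Summed coverage over listed CpG sites was 27247702 to 34293779 reads per library, and every site used had 100 reads or more in all 6 libraries. Members had 100 to 2111 reads, with a median of 203 reads over all member sites and libraries. Mean methylation over all 32674 sites was 67.3% in SNL and 68.2% in Sham, a difference with p = 0.2 in an exact two-sided permutation test that cannot go below 0.1 with 3 libraries against 3. DRG are mixed tissue, and in such bulk DNA a change in the mix of cells and a change within cells cannot be told apart. Methylation is not expression, so the tissue label could not be checked from expressed markers. Of all sites, 1.24% passed the test with less methylation in SNL. As a description, 2 sites of marker genes passed it, both in that direction. One was beside Nefl, the neurofilament light chain of sensory neurons, with 72.9% ± 0.86 in SNL and 79.8% ± 2.70 in Sham (adjusted p = 0.0322), among 25 sites of 4 neuronal marker genes. The other was beside Egr2, a regulator of Schwann cell myelination, with 35.9% ± 2.92 in SNL and 48.7% ± 1.88 in Sham (adjusted p = 0.0311), among 19 sites of 4 Schwann cell markers. None of the 9 sites of macrophage markers or the 26 of fibroblast and endothelial markers passed. Their part in the cadherin results was not tested.

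After ligation, methylation fell at 6 of the 300 cadherin and protocadherin sites and rose at none, judged by an adjusted p under 0.05. All 6 were outside promoters, in highly methylated DNA, and the differences lay between -8.80 and -4.70 percentage points. They lay beside 4 genes: 2 beside Cdh10 and 1 beside Cdh20, both type II cadherins, 2 beside Dsc3, a desmocollin, and 1 beside Cdh26, a less studied cadherin. The 6 sites are 2% of the members, against a background of 1.24% of all 32674 sites called with less methylation in SNL and 1.42% called in either direction, so the share is near the background. The test was a logistic regression of methylated and unmethylated reads with the extra spread between libraries moderated over all sites. The p-values were adjusted over all 32674 sites by Benjamini-Hochberg. Every adjusted p of a site comes from this test and adjustment, unless another is named. With each site's own spread in place of the moderated one, or with limma on logit values (pseudocount 1), no site of the whole table passed the adjustment, while 25 and 48 member sites had an unadjusted p under 0.05.

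Across the members without regard to the test, the SNL mean was below the Sham mean at 208 sites and above it at 92. That is 69.3% below, against 61.3% of all annotated sites, and the median difference was -1.15 points for members against -0.55 for all sites. With each library given its own offset, 192 member sites were below and 108 above. Every SNL library was below every Sham library at 55 member sites, which is 18.3% against a background of 13.2%, and above it at 14 sites, which is 4.67% against 4.64%. Averaged over the 300 sites, the libraries stood at 72.3%, 71.5% and 70.8% in SNL, against 72.7%, 73.1% and 73.4% in Sham. No SNL library reached the lowest Sham library in these averages, and the difference was -1.52 points, against -0.91 over all other sites.

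**Figure D2:**
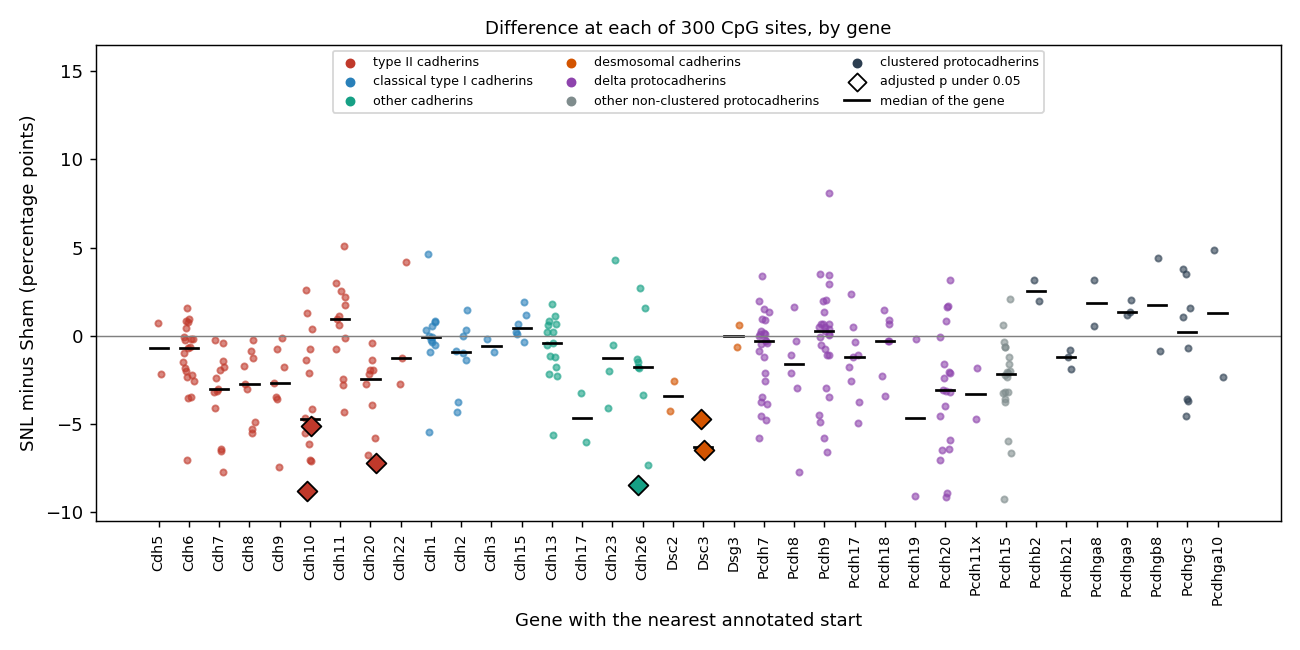
Each point is 1 of 300 CpG sites, placed by the gene with the nearest start. The vertical axis is the difference of group means (SNL minus Sham, percentage points). Black bars are the median of each gene, and diamonds with a black edge mark the 6 sites with an adjusted p under 0.05. All diamonds lie below 0, between -8.80 and -4.70, and the clustered protocadherins spread around 0.

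Cdh10, a type II cadherin of neurons, held the site with the lowest p. At chromosome 2, position 69152119 (rn4), 320.2 kb upstream of the start and between genes, methylation was 76.7%, 74.7% and 78.3% in SNL 1 to 3, against 83.3%, 86.3% and 86.5% in Sham 1 to 3. The groups did not overlap, and the difference was -8.80 points with an SE of 1.47 (adjusted p = 0.00164), from 787 to 1090 reads in each library. This call was kept when any 1 of the 6 libraries was left out, with an adjusted p of 0.00147 to 0.0240. A neighbouring CpG 142 bp away was read less deeply, down to 29 reads, and averaged 77.3% ± 3.15 in SNL and 85.5% ± 7.70 in Sham, with an adjusted p of 0.697 over all 210270 sites with 20 reads or more.

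The other Cdh10 site lay 1093.7 kb downstream of the start at position 70566034. It read 78.4%, 77.4% and 77.2% in SNL, against 81.7%, 81.7% and 85% in Sham. Here and below, ± after a difference is its SE, while ± after a group mean is the SD. The groups did not overlap and the difference was -5.13 ± 1.16 points (adjusted p = 0.0253, with 1039 to 1550 reads). Sham 3 stood above the other Sham libraries there, and without it, without SNL 2 or without SNL 3 the call was lost. The one CpG within 1000 bp, read by as few as 28 reads, averaged 87.6% ± 10.1 in SNL and 84.8% ± 2.32 in Sham.

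Cdh20 is a type II cadherin known from the developing nervous system. Its called site was the only one of the 6 inside an intron, at chromosome 13, position 10988648, 18.5 kb downstream of the start. Methylation was 81.9%, 82.3% and 78.8% in SNL, against 87.8%, 86.8% and 90.1% in Sham. Here SNL 3 was the lowest and Sham 3 the highest, and the groups did not overlap. The difference was -7.24 ± 1.49 points (adjusted p = 0.0171; 482 to 778 reads), and it no longer passed without SNL 3 or without Sham 3.

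Dsc3 encodes desmocollin 3, best known from the desmosomes of stratified epithelia. The site at chromosome 18, position 11740233, lay 124.9 kb downstream of the Dsc3 start and read 85.4%, 85.4% and 87.7% in SNL, against 91.9%, 92.9% and 93.2% in Sham. The groups did not overlap, with a difference of -6.47 ± 0.86 points (adjusted p = 0.0131; 427 to 548 reads), and the call was lost without SNL 2, Sham 2 or Sham 3. The second site, at position 11324487 and 540.6 kb downstream, read 84.0%, 83.8% and 82.9% in SNL, against 87.0%, 87.6% and 90.2% in Sham. Its groups did not overlap either, but its difference of -4.70 ± 1.03 points only just passed (adjusted p = 0.0494; 718 to 1048 reads) and did not pass in any of the 6 fits with a library left out, nor with library offsets. Within 1000 bp of it, 4 CpG sites with 22 reads or more differed by -4.83, -3.55, 6.04 and -4.04 points. Their adjusted p, over all 210270 sites with 20 reads or more, was 0.757 to 0.963.

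Cdh26 contributed the site at chromosome 3, position 167681117, 156.8 kb downstream of its start. Methylation was 73.5%, 69.3% and 70.8% in SNL, against 80.4%, 79.6% and 79.0% in Sham. All Sham libraries lay close together and above the SNL libraries. The difference was -8.48 ± 1.3 points (adjusted p = 0.0212; 396 to 609 reads), and the call was kept in only 1 of the 6 fits with a library left out, the one without SNL 1.

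**Figure D3:**
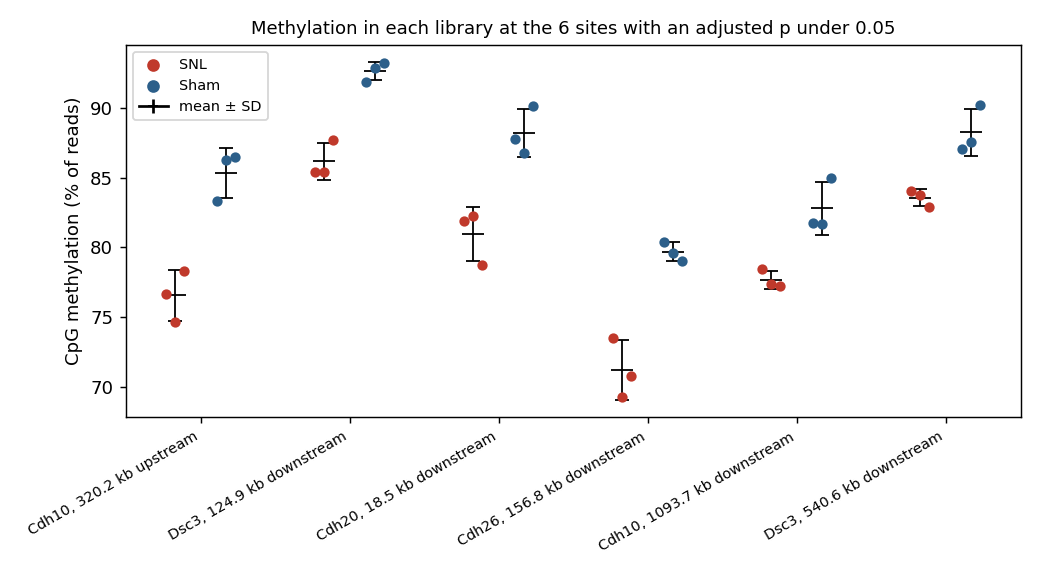
Percent methylation at the 6 CpG sites with an adjusted p under 0.05, with SNL left of Sham at each site; points are libraries and bars are the mean and SD of 3 libraries. The groups do not overlap at any of the 6 sites, and the differences lie between -8.80 and -4.70 points.

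Summed over the sites of a gene, methylation fell for 2 of the 36 genes, Dsc3 and Cdh10, and rose for none. Of all 8016 genes, 0.511% were called with less methylation in SNL, and 2 of 36 is 5.56%. Genes with many sites have more reads, and among genes with at least 4 sites 2 of 22 members were called (9.09%), against 19 of 3090 other genes (0.615%). Each gene sum adds the called sites of that gene to the rest, so it is no separate support for them. Every SNL library was below every Sham library for 9 of the 36 genes (25%), against a background of 15.8%, and none was above throughout, against 3.69%.

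Dsc3 had 4 sites, and its sum read 79.1%, 79.5% and 79.1% in SNL, against 84.6%, 84.7% and 85.8% in Sham. The spread within each group was small beside the gap, and the difference was -5.76 ± 0.40 points (adjusted p over all genes = 0.0206). All 4 Dsc3 sites had a negative difference, the other two with -6.34 and -6.23 points and adjusted p of 0.0992 and 0.107. Cdh10 had 16 sites, and its sum read 80.7%, 80.2% and 80.1% in SNL, against 84.1%, 84.7% and 86.6% in Sham, a difference of -4.77 ± 0.80 points (adjusted p = 0.0351). Of its sites 13 were lower on average in SNL. All 16 sites together stretched from 912 kb upstream to 3688.9 kb downstream. Both gene calls were lost when SNL 2, SNL 3, Sham 2 or Sham 3 was left out, with adjusted p up to 0.138 for Dsc3 and 0.154 for Cdh10. With limma on logit values (pseudocount 1) the adjusted p was 0.160 and 0.244, and without moderation 0.507 and 0.534.

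**Figure D4:**
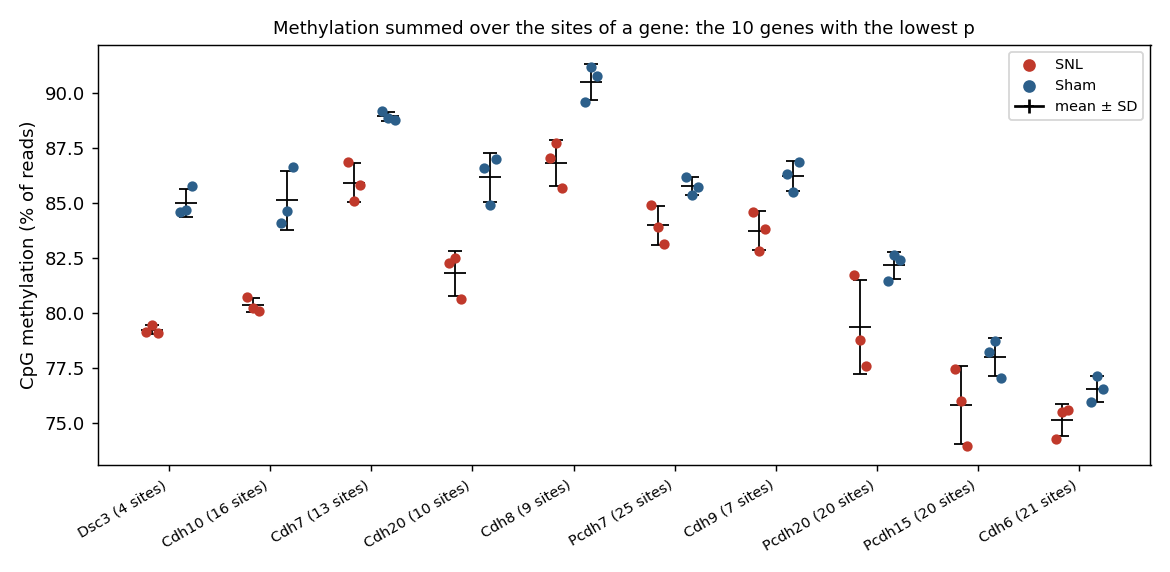
Percent methylation of reads summed over the sites of each of the 10 member genes with the lowest p, with SNL left of Sham; points are libraries and bars are the mean and SD of 3 libraries. Dsc3 and Cdh10, with differences of -5.76 and -4.77 points, are the 2 genes with an adjusted p under 0.05.

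Type II cadherins, the group that includes Cdh10 and Cdh20, bind their own kind and close relatives and mark sets of neurons in development. They held 94 sites of 9 genes, of which 3 were called (3.19%), all with less methylation in SNL. Of all sites, 1.24% were called in that direction. The SNL mean was below the Sham mean at 76 of the 94 sites (80.9%, against 61.3% of all sites), or 71 with library offsets (75.5%, against 54.9%). The median difference was -1.95 points, against -0.55 over all sites. Of these type II sites 76.6% lay over 100 kb from a start, and at that range the other sites were also mostly lower, with 65.3% between 100 and 500 kb and 73.3% beyond. Every SNL library was below every Sham library at 23 sites (24.5%, against the background of 13.2%). Among all other annotated sites this share was 15.3% between 100 and 500 kb and 21.9% beyond. The difference was negative at 13 of 13 sites of Cdh7, 9 of 9 of Cdh8, 7 of 7 of Cdh9 and 10 of 10 of Cdh20; with offsets it was negative at 12 of the Cdh7 and 6 of the Cdh9 sites. It was negative at 13 of 16 sites of Cdh10, 16 of 21 of Cdh6 (14 with offsets), 2 of 3 of Cdh22, 1 of 2 of Cdh5 and 5 of 13 of Cdh11 (4 with offsets). Among other genes with at least 4 sites, 10.2% had a negative difference at every site. Of these type II genes, only Cdh10 passed as a sum (above). Cdh7 averaged 85.9% ± 0.89 in SNL and 88.9% ± 0.23 in Sham (adjusted p = 0.0769). Cdh20 averaged 81.8% ± 1.02 and 86.2% ± 1.12 (0.10), and Cdh8 averaged 86.8% ± 1.05 and 90.5% ± 0.82 (0.123). Cdh9 averaged 83.7% ± 0.90 in SNL and 86.2% ± 0.69 in Sham (0.272), and Cdh6 averaged 75.1% ± 0.73 and 76.6% ± 0.60 (0.393).

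The 2 Cdh7 sites closest to the threshold were neighbours 639.0 kb from the start, at positions 17523374 and 17523406, with differences of -6.53 and -3.15 points and adjusted p of 0.0642 and 0.0818. Among all members, the sites next outside the threshold after the first of these were 1 of Pcdh15 with -6.65 points (0.0748) and 1 of Pcdh20 (below). Cdh11, a cadherin of mesenchyme and bone, had a gene sum of 77.7% ± 2.74 in SNL and 76.6% ± 2.23 in Sham (0.852) and gave the largest positive difference of the type II group. Its site 2.1 kb upstream of the start read 19.3%, 22.1% and 25% in SNL, against 15.4%, 21.8% and 13.9% in Sham. The groups overlapped, with a difference of 5.09 points and an adjusted p of 0.579. Cdh5, the endothelial VE-cadherin, averaged 92.6% ± 4.11 in SNL and 93.4% ± 1.93 in Sham over 2 sites, and Cdh22 averaged 61.8% ± 1.75 and 62.4% ± 1.06 over 3.

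Type I cadherins form the strong junctions of epithelia, muscle and neural tissue, and none of their 28 sites passed the test. The SNL mean was below the Sham mean at 16 sites, or 14 with offsets, and the median difference was -0.06 points. For Cdh2, which encodes N-cadherin of neural tissue and Schwann cells, a shore site in an intron 4.1 kb from the start averaged 3.26% ± 0.54 in SNL and 7.03% ± 0.59 in Sham. No SNL library reached a Sham library there, but the adjusted p was 0.113, and 2 close neighbours of it differed by -0.03 and 1.48 points. Cdh15, the M-cadherin of muscle, averaged 94.6% ± 0.08 in SNL and 93.9% ± 0.76 in Sham over 6 sites. Cdh3, the P-cadherin of epithelia, averaged 89.3% ± 2.96 and 89.8% ± 2.02 over 2.

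Desmosomal cadherins had 8 sites of 3 genes, with both calls beside Dsc3. Dsc2, a more widely expressed desmocollin, averaged 80.2% ± 1.79 in SNL and 83.6% ± 2.14 in Sham over 2 sites (adjusted p = 0.555). Dsg3, a desmoglein of stratified epithelia, averaged 94.6% ± 0.94 in SNL and 94.6% ± 1.03 in Sham over 2 sites in an exon (0.994). The remaining cadherins with 30 sites included Cdh13, whose 15 sites averaged 76.1% ± 1.97 in SNL and 77.0% ± 0.71 in Sham (0.813). Cdh17, a cadherin of liver and intestine, averaged 54.6% ± 3.16 and 59.2% ± 2.21 (0.564). Cdh23, which forms the tip link of inner ear hair cells together with Pcdh15, averaged 55.6% ± 1.62 in SNL and 55.4% ± 0.30 in Sham (0.980). Cdh26 as a sum averaged 84.4% ± 2.09 in SNL and 85.9% ± 1.80 in Sham (0.593), while the differences of its other 8 sites lay between -7.31 and 2.69 points.

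Delta protocadherins, adhesion proteins of neurons that also signal to the cytoskeleton, held 98 sites of 8 genes, and none was called. Of these sites 62 were lower on average in SNL, or 57 with library offsets, and the median difference was -0.63 points. Pcdh20 had its largest difference 2671.9 kb upstream of the start, with 89.3%, 83.7% and 80.8% in SNL, against 96.9%, 91.3% and 93.1% in Sham. The groups did not overlap, at -9.15 points and an adjusted p of 0.0814, and the gene sum averaged 79.4% ± 2.13 in SNL and 82.2% ± 0.62 in Sham (0.278). Pcdh19, the gene of an X-linked epilepsy in humans, had a site 2164.0 kb away that read 77.5%, 78.2% and 57.3% in SNL, against 78.5%, 77.2% and 84.6% in Sham. SNL 3 alone lay far below the others, so the difference of -9.11 ± 7.24 points is within the spread of its libraries (0.443).

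The largest positive difference of all members was beside Pcdh9, 2017.6 kb downstream of its start at chromosome 15, position 74719716. It read 32.9%, 33.3% and 33.1% in SNL, against 21.5%, 24.7% and 28.9% in Sham. The SNL libraries were nearly equal and all above the Sham libraries, with 8.08 ± 2.14 points and an adjusted p of 0.138. Over its sites Pcdh9 averaged 51.8% ± 2.06 in SNL and 52.3% ± 2.52 in Sham (0.957). Pcdh7 had 25 sites and averaged 84.0% ± 0.89 in SNL and 85.8% ± 0.40 in Sham (0.174), with 15 sites below Sham, or 12 with offsets. Pcdh8, known from synapses, averaged 63.6% ± 3.08 and 67.8% ± 3.64 (0.467), and Pcdh11x averaged 78.5% ± 1.66 and 81.7% ± 0.42 (0.454). Pcdh17 averaged 74.2% ± 2.3 in SNL and 75.1% ± 2.04 in Sham (0.870), and Pcdh18 averaged 31.6% ± 1.48 and 32.5% ± 1.65 over all its sites (0.833).

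Pcdh15 was the only other protocadherin outside the clusters, with 20 sites, none called. The SNL mean was below the Sham mean at 18 of them, or 16 with offsets, with a median of -2.17 points. Its intronic site at chromosome 20, position 14936758, had the largest negative difference of all members, with 83.0%, 81.7% and 83.9% in SNL, against 95.0%, 89.9% and 91.3% in Sham. The groups did not overlap, and the difference was -9.23 points, but with 104 to 158 reads the adjusted p was 0.102. The gene sum averaged 75.8% ± 1.78 in SNL and 78.0% ± 0.87 in Sham (0.310).

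Clustered protocadherins are transcribed from alternative first exons, each with its own promoter, so that single neurons show different combinations. Their 22 sites, all on chromosome 18, had intermediate levels, with a median of 58.6% in SNL and 56.2% in Sham. None was called, and the SNL mean was below the Sham mean at 9 sites and above it at 13, with 8 and 14 under library offsets. Within 2 kb of a start, 9 sites of 4 gamma genes averaged 18.7% to 79.0% in SNL and 17.5% to 79.9% in Sham. At Pcdhga10, an exonic site 1.1 kb in read 47.9%, 49.1% and 55.3% in SNL, against 45.5%, 47.0% and 45.2% in Sham. The groups did not overlap, at 4.87 points and an adjusted p of 0.377. At Pcdhgb8, an exonic site read 56.8%, 62.4% and 57.2% in SNL, against 62.2%, 51.9% and 49.1% in Sham, and there the groups overlapped (4.4 points, 0.758). Pcdhga9 averaged 25% ± 1.3 in SNL and 23.4% ± 0.57 in Sham over 3 exonic sites (0.602), and Pcdhgc3 averaged 64.7% ± 1.58 and 63.5% ± 0.73 over 8 (0.673). Of the beta cluster, Pcdhb2 averaged 71.6% ± 7.13 and 69.1% ± 6.18, and Pcdhb21 averaged 89.2% ± 0.79 and 90.5% ± 1.23.

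Members lay farther from transcript starts than the rest of the annotated sites. Of member sites 63.3% lay over 100 kb from a start and 36% over 500 kb, against 32.6% and 6.34% of all sites. Within 10 kb of a start, 49 member sites had a median difference of 0.52 points, against -0.19 at 7533 other sites, and none was called, against 1.41%. Between 10 and 100 kb the medians were -1.21 at 61 member sites and -0.53 at 14395 others. Between 100 and 500 kb they were -1.73 at 82 and -0.87 at 8484, with 3.66% of members and 1.52% of others called. Beyond 500 kb they were -2.13 at 108 member sites and -1.51 at 1962 others, where 75.9% and 73.3% of sites were lower on average in SNL and 1.85% and 2.65% were called. In that outermost class the members averaged 83.2%, 82.0% and 80.8% in the SNL libraries, against 83.7%, 84.0% and 84.9% in the Sham libraries.

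**Figure D5:**
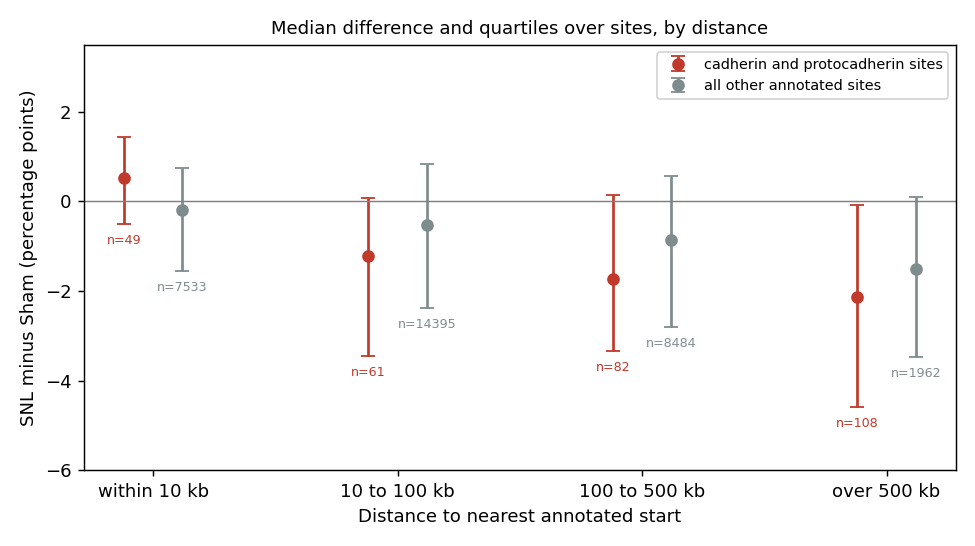
Median difference of group means (SNL minus Sham, percentage points) with the quartiles over sites as bars, for member sites and for all other annotated sites in 4 classes of distance to the nearest start. The median of the members goes from 0.52 within 10 kb to -2.13 beyond 500 kb, and that of the other sites from -0.19 to -1.51.

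Calls fell mostly on deeply read sites. Of the 179 member sites whose shallowest library had under 200 reads none was called, of 87 with 200 to under 400 reads 1 was called, and of 34 with 400 reads or more 5 were called. These are 0%, 1.15% and 14.7% of the members, against 0.591%, 1.40% and 4.72% of the other sites at the same depths. At an unadjusted p under 0.05 there were 52 member sites, 49 of them lower in SNL, which is 17.3% against 13.1% of all sites. No member site differed by 10 points or more, while 628 of all sites did. A decrease of 5 points or more was seen at 39 member sites (13%, against 9.18% of all sites) and an increase of that size at 2 (0.667%, against 3.23%).

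The authors' deposited table gives a q-value for each site, and 22 member sites had a q under 0.05 there, 21 with less and 1 with more methylation in SNL. That is 7.33% of members against 4.54% of all sites in the same table. The single increase in the authors' deposited table was the Pcdh9 site at position 74719716, with q = 0.0118.

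The partners of cadherins were considered next. Catenins, plakophilins, plakoglobin, desmoplakin and other proteins that bind cadherin tails had 41 sites beside 8 of 16 listed genes, and none was called; the median difference was -0.14 points. Larger relatives of the family, such as the Fat, Dachsous and Celsr proteins and the calsyntenins, had 43 sites beside 9 of 17 listed genes, with a median of -0.19 points. Methylation rose at 1 of these, an intronic site 57.7 kb inside Fat1, which encodes a giant atypical cadherin. It averaged 87.3% ± 1.07 in SNL and 82.3% ± 0.40 in Sham, a difference of 4.99 points (adjusted p = 0.0444), while 0.181% of all sites were called in that direction. No gene of either list passed as a sum.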

How the data were processed

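DNA methylation was measured by single-end RRBS with reads of 50 bases in 3 SNL and 3 Sham libraries. The submitters' processing notes list Bismark 0.18.1, Bowtie2 and methylKit 1.3.3. Those notes name the rat build rn4, while the protocol text names a human one; positions are given as listed, as rn4. The deposited library files give the coverage of each CpG (a count of reads) and the percent that kept C. The deposited series table gives percent methylation for sites with 100 reads or more in all 6 libraries, a p-value, a q-value and a difference by the authors (a signed score in percentage points), annotation flags and the distance to the nearest start.

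Methylated reads were recovered here as coverage times percent. RefSeq identifiers were matched to symbols through a gene list of GRCr8, used for names only (7627 of 8123 transcripts matched); promoter sequences are RefSeq's. Letters after the prefix were read as protocadherin clusters only, and 1 further gene of the family was not analysed here. Each site, and the summed reads of each gene, was tested by logistic regression on group; overdispersion was moderated over all sites or genes (limma, squeezeVar), never below 1, followed by a two-sided F test and Benjamini-Hochberg adjustment. Differences are SNL minus Sham of the group means of library percents, and ± after a difference is its SE. Neighbouring sites can share reads. Intervals and tests at one depth cover counting error and the spread of 3 libraries per group. Alternatives are a coverage minimum of 200, library offsets, no moderation, limma on logit values (pseudocounts 1 and 0.5), a replicate block, summed neighbouring positions, adjustment over 210270 sites, a wider reading of the letters, and leaving out each library.

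Members and lists were chosen with earlier results of these data known. Named with library values are called sites and the 5 largest differences in each direction (1 site per gene); also named are the 10 genes with the lowest p and all genes with promoter sites. The other genes and sites named with values, among them Cdh2, Pcdhgc3 and the sites just outside the threshold, were picked knowing their values. Simulated data served to check the fit. Software was matplotlib 3.10.9, numpy 2.4.6, pandas 2.3.3, Python 3.11.15, limma 3.58.1, data.table (1.17.8) and R 4.3.3.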

Additional observations from a re-analysis of the deposited data

How the results depend on the processing

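The 6 called member sites and 2 called member genes became 0 and 0 without moderation and with limma at either pseudocount, where 0 of all sites were called too; at an unadjusted p under 0.05, 25 member sites passed without moderation and 48 and 45 with limma at pseudocounts 1 and 0.5. The cause was not tested. With the replicate number as a block, 1 member site (Cdh10, position 69152119, adjusted p = 0.0395), 95 of all sites and 0 member genes were called, with adjusted p of 0.0821 for Dsc3 and 0.102 for Cdh10. The labels do not say whether equal numbers mark the same animal. Deviations from the group mean correlated at -0.055, 0.256 and -0.135 for same-numbered libraries. Over all pairs of an SNL and a Sham library they ran from -0.293 to 0.341, the highest for SNL 3 with Sham 1. With 3 libraries a group, these values cannot decide whether libraries are paired. Leaving out 1 library left 1 to 9 member sites, 129 to 522 of all sites (464 with every library) and 0 to 3 member genes called. Adjusted over 210270 sites, 10 member sites were called. A coverage minimum of 200 left 5 of 121 member sites and 240 of all sites, and library offsets left 5 and 401, of which 74.1% were lower in SNL, against 87.3% without offsets. Summing neighbouring positions and the wider reading of the letters each left 6. None of the fitted differences of the called sites, of the 5 largest in each direction or of the 10 gene sums changed sign under these alternatives, but other member sites did: 208 were lower in SNL without offsets and 192 with them.

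No member site with under 200 reads in its shallowest library passed, against 0.591% of the other sites at that depth. With 3 libraries a group, a missed call does not show equal methylation.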
